A study of Oncorhynchus mykiss with 16 samples.

Results

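A set of candidate probes with readable gene names was followed through the culture of rainbow trout (Oncorhynchus mykiss) fat cell precursors. These probes belong to a custom design of 224 candidate probes on an Agilent oligonucleotide array. The design marks the probes by a common ending of their identifiers, and 60 of them carry a gene or protein name where the others carry the identifier of a contig, a read or a sequence record. The 40 probes described here are those 60 without 19 names left aside, among them the nuclear receptors PPAR and RXR, the glucose transporters and several autophagy genes, and without 1 name that only gives a species. They are 40 of the 60195 probes on the array that are not controls. The rule that chose them reads names only, although it was written with earlier results of these data known. Each probe has 1 spot, and the names are those of the array design, with no sequence or newer annotation to check them against.

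Cells were isolated from the visceral fat of several fish pooled per culture and grown in 4 independent cultures, named by the numbers 4, 8, 9 and 10 of the labels. RNA was taken at days 3, 8, 15 and 21, which the study calls in turn the stages of mesenchymal stem cells, of proliferated cells, of preadipocytes that are committed, and of adipocytes that are mature. There was 1 array for each culture and day, so n = 4 at each day. All cultures grew in medium with fetal bovine serum, and from confluence at day 8 the medium also held insulin, IBMX, dexamethasone and a lipid mixture. Days 15 and 21 therefore differ from days 3 and 8 in medium as well as in age, and these cannot be told apart. The stage names are those of the study. Of the adipocyte marker genes looked for, only PPARg had a readable name, and it was well above background on 0 of 4 arrays at every day. The stage names could therefore not be checked further with these probes. By Western blot, the study itself reported PPARγ protein as raised from day 8 and still so at day 21.

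A fat cell takes up fatty acids that lipoprotein lipase frees from circulating lipoproteins, binds them inside the cell, activates them to acyl-coenzyme A and then stores them as triglyceride or burns them in mitochondria. Building this machinery from a fibroblast-like precursor also requires old proteins to be broken down, by lysosomal cathepsins, cytosolic calpains and the proteasome. The precursors share their mesenchymal origin with muscle, tendon and bone cells, whose master regulators are normally silenced on the way to fat. The candidate probes touch each of these processes, and they are described below by role.

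Values are log2 of the processed signal relative to the 75th percentile of the array, so that 0 marks a probe as bright as that percentile. They are comparable between arrays for 1 probe but not between probes. Of the 40 probes, 27 were tested, 12 were too dim and 1 lacked a value, and 21 of the 27 were well above background on all 16 arrays. The filter asked for 1 day or more on which all 4 arrays read well above background. A difference passed the test at a Benjamini-Hochberg adjusted p below 0.02 in limma, adjusted over all 42541 tested probes of the array. The study's own criteria were an analysis of variance at p below 0.02, with no adjustment named, and an average ratio above 3. The 4 arrays of a culture come from the same pool of cells, so a fit with culture as a block is given beside the main fit where it changes a call.

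In the main fit 4 of the 27 tested probes passed in at least 1 comparison, those named LDL, Acyl-coenzyme, fbx32 and cathepsine. In RNA from whole cultures, fewer cells of a type and less RNA per cell cannot be told apart. Over the 4 days, 2 probes passed the F-test (LDL and cathepsine), where 24.3% of all tested probes passed. From day 3 to day 8, 2 probes fell and 0 rose, against 4.87% and 5.15% of all probes. Between the phases, where the late mean (days 15 and 21) was set against the early mean (days 3 and 8), 2 probes rose and 1 fell, against 12.5% and 13.0%. From day 8 to day 15, 0 probes passed in limma, while 1.17% of all probes rose and 0.740% fell. No probe passed from day 15 to day 21, and 0% of all probes passed there either.

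With culture as a block, more of the candidates passed. Between the phases 7 rose and 2 fell, against 17.0% and 17.9% of all probes in that fit. 1 of the 7, MSX1, met the filter only through a late day when it was high, so its pass is no support for a rise. By the same fit there were 2 in each direction from day 3 to day 8, against 8.95% higher and 9.40% lower. Over the 4 days 5 passed, namely LDL, Acyl-coenzyme, fatty, cathepsine and scleraxis, against 36.7% of all probes. From day 8 to day 15 there was 1 rise, against 3.44%, and 0 falls, against 2.44%. In the main fit 0 candidates that passed also had a ratio above 3. Among all probes the shares that did were 8.84% over the 4 days, 1.87% higher and 0.999% lower from day 3 to day 8, 0.348% and 0.308% from day 8 to day 15, and 1.67% and 2.25% between the phases. With the block, 1 candidate, myod1, did so between the phases, where 1.79% of all probes were higher and 2.50% lower. The median size of the candidates' log2 difference, beside that of all tested probes, was 0.26 against 0.35 from day 3 to day 8, 0.46 against 0.27 from day 8 to day 15, 0.13 against 0.16 from day 15 to day 21 and 0.32 against 0.34 between the phases.

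**Figure D1:**
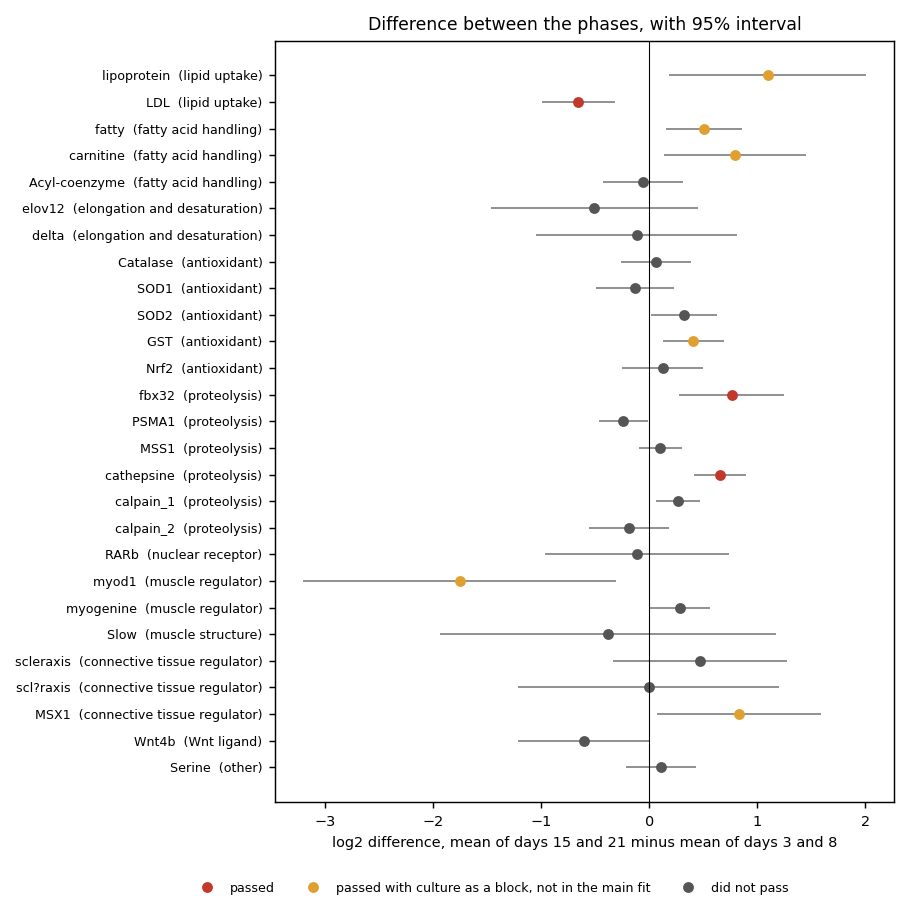
Log2 difference of the late mean (days 15 and 21) from the early mean (days 3 and 8, x axis) for the 27 tested probes (y axis, with role), points with 95% intervals from limma over 16 arrays, red where the test was passed, yellow where it was passed with culture as a block but not in the main fit, and grey otherwise. MSX1 entered the test through day 15, so its yellow point is no support for a rise. LDL lies below 0 and fbx32 and cathepsine above it with intervals clear of 0, and the widest intervals belong to Slow and myod1. The intervals are not adjusted for the number of probes, and those of several probes that did not pass, such as lipoprotein, fatty and GST, are also clear of 0.

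From day 3 to day 8 in the main fit, LDL and Acyl-coenzyme passed, 2 of the 27 candidates, where 10% of all tested probes passed. The lipoprotein, fatty and carnitine probes did not pass in that step. The LDL probe, whose name breaks off so that the file does not say whether it means the lipoprotein's receptor or a related protein, fell between day 3 and day 8 in all 4 cultures. At day 3 it read 0.78, 1.14, 1.09 and 0.87 in cultures 4, 8, 9 and 10, and at day 8 it read 0.40, 0.13, -0.02 and 0.00. At day 15 the values were 0.39, -0.09, -0.21 and 0.04, and at day 21 they were 0.40, -0.14, -0.77 and -0.50. Every day 3 array lay above every later array. Culture 4 stayed level from day 8 on, while the other cultures had their lowest value at day 21.

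The log2 difference of the LDL probe from day 3 to day 8 was -0.84 ± 0.22 (SE, n = 4 at each day, adjusted p = 0.0193). Between the phases it was -0.66 ± 0.16 (adjusted p = 0.00516), and over the 4 days the adjusted p was 0.00355. The early fall lies close to the threshold. It passed in 6 of 12 alternatives, and not without culture 8, 9 or 10 (adjusted p = 0.149, 0.105 and 0.0744), with slide as a block (-0.77, adjusted p = 0.0519), without a filter on dim probes (adjusted p = 0.0329) or with the deposited values (adjusted p = 0.0211). The difference between the phases did not pass without culture 8, 9 or 10 either (adjusted p = 0.0582, 0.0574 and 0.0286), nor did the F-test (adjusted p = 0.068, 0.0605 and 0.0333). The 2 slides held days 3 and 8 unevenly, with 3 arrays of day 3 on one and 3 of day 8 on the other. Within the slides the early differences were -0.63 and -0.74. No culture had its day 3 and day 8 arrays on the same slide. Each of these values therefore sets 1 array of one culture against 3 arrays of other cultures, and day and culture cannot be told apart in them.

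The Acyl-coenzyme probe carries an Atlantic salmon name that breaks off before the enzyme's function, so it stands for an enzyme of acyl-coenzyme A handling that cannot be named further. It dipped at day 8. Its day 3 values were -1.76, -1.69, -1.90 and -2.38, and its day 8 values were -3.21, -2.85, -2.69 and -3.06. At day 15 it read -2.78, -2.44, -2.21 and -3.22, and at day 21 it read -2.52, -1.84, -2.22 and -2.75. All day 8 arrays were below all day 3 arrays, and from day 8 to day 21 the probe was higher again in all 4 cultures.

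The fall of the Acyl-coenzyme probe to day 8 was -1.02 ± 0.24 (SE), or 2.03-fold (adjusted p = 0.0113), and -1.22 and -1.11 within the slides. The values within the slides again compare arrays of different cultures. The fall did not pass without culture 4, 8 or 9 (adjusted p = 0.0812, 0.0726 and 0.0539), and the culture block gave an adjusted p of 0.000959. Between the phases the difference was -0.05 (95% interval -0.42 to 0.31), since the dip and the recovery fall on both sides. The F-test over the 4 days gave an adjusted p of 0.0209, and 0.00146 with culture as a block.

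3 further probes of lipid handling were higher in the differentiation phase in all 4 cultures but did not pass in the main fit. All of them passed with culture as a block, where 17.0% of all tested probes were higher between the phases. The phase differences of the other tested lipid probes, LDL, Acyl-coenzyme, delta and elov12, were -0.66, -0.05, -0.12 and -0.51. The lipoprotein probe, again with a name that breaks off, had a phase difference of 1.10 ± 0.43 (SE, adjusted p = 0.06 and 0.00592 with the block). At day 3 it read -1.16, -1.25, -2.11 and -2.06, and at day 21 -0.29, 0.25, -0.02 and -2.27 in cultures 4, 8, 9 and 10. Culture 10 stayed low throughout, between -2.61 and -1.83, and without it the difference was 1.37 (adjusted p = 0.00434). Without culture 9 the difference was 0.69 (adjusted p = 0.364), and without culture 8 it was 1.01 (adjusted p = 0.203). The probe named fatty, short for a fatty acid gene that cannot be identified, had a difference of 0.51 ± 0.16 (adjusted p = 0.0264, and 0.00617 with the block), and it also passed with the deposited values (adjusted p = 0.00847). Its F-test over the 4 days gave an adjusted p of 0.0775, and 0.0184 with the block. The dim carnitine probe, a name shared by the enzymes that pass fatty acids into mitochondria, had a difference of 0.79 ± 0.31 (adjusted p = 0.0597, and 0.0131 with the block). The VLDL probe was well above background on 0 of the 16 arrays.

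**Figure D2:**
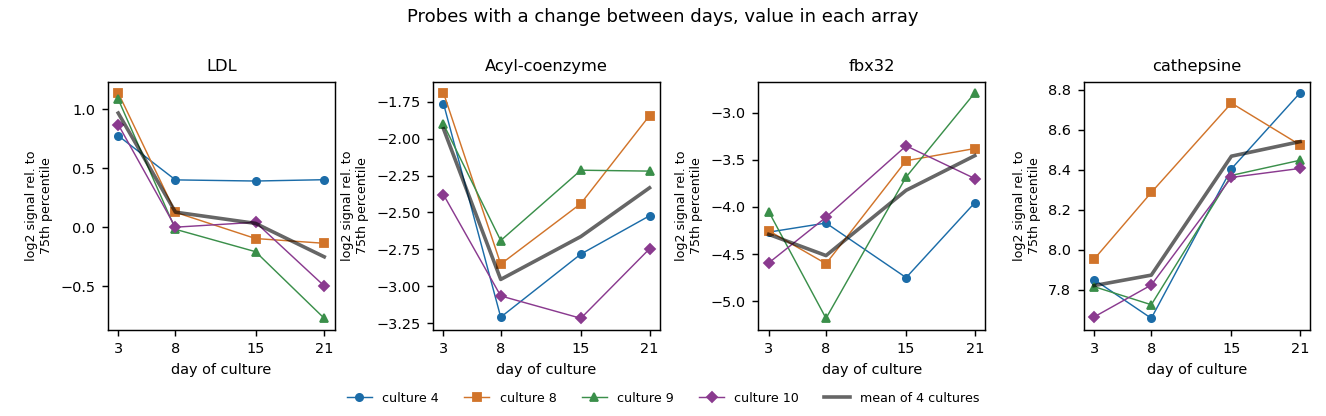
Value of the LDL, Acyl-coenzyme, fbx32 and cathepsine probes in each array (y axis, log2 signal relative to the 75th percentile, scaled per panel) by day of culture (x axis), 1 thin line per culture and a thick line for the mean of 4. LDL falls after day 3, Acyl-coenzyme dips at day 8, and cathepsine steps up between days 8 and 15 in all 4 cultures.

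Fatty acids are lengthened by elongases and given double bonds by desaturases, which fish use to make long unsaturated fatty acids. The probe named delta, a word that opens the names of the desaturases but does not settle which protein is meant, was higher at day 8 than at day 3 in all 4 cultures. It read 0.17, -0.48, -0.53 and 0.93 at day 3 and 1.86, 1.04, 1.19 and 1.33 at day 8 in cultures 4, 8, 9 and 10. The arrays of these days did not overlap, but the log2 difference of 1.33 ± 0.62 (SE) did not pass (adjusted p = 0.157). Afterwards the cultures parted. At day 15 delta read 1.90, 0.12, 0.51 and -0.49. At day 21 it stood at 2.75 in culture 4 and at -0.18, 0.34 and -0.38 in the others.

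The elov12 probe, whose name resembles those of the elongases, showed the same split. Its day 8 values were -1.57, -1.84, -2.49 and -2.28, and its day 21 values were -0.49, -3.37, -3.35 and -3.61 in cultures 4, 8, 9 and 10. Culture 4 was the highest at day 21 and the other cultures were lower at day 21 than at day 8. Over all cultures the phase difference was -0.51 ± 0.45 (SE, adjusted p = 0.406), and without culture 4 it was -1.11 ± 0.23 (adjusted p = 0.00541). It was -0.09 (adjusted p = 0.914) without culture 10 and -0.32 (adjusted p = 0.731) without culture 8, so the value rests on which cultures enter. The elongase probe elovl5b was well above background on 1 array only, that of culture 8 at day 21.

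Arrays that did not overlap were counted for the step from day 3 to day 8 and for the phases. In the early step the arrays lay apart for delta, calpain_1 and calpain_2 in the higher direction, 3 of 27 against 9.83% of all tested probes, and for LDL, Acyl-coenzyme and MSS1 in the lower direction, 3 of 27 against 11.5%. Between the phases cathepsine alone had all 8 late arrays above all 8 early ones, 1 of 27 against 2.82%, and 0 lay apart in the lower direction, against 1.53%.

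Protein breakdown was represented by 6 probes, all tested. Between the phases fbx32 and cathepsine rose, where 12.5% of all tested probes did, and 4 did not pass. The cathepsine probe stands for a lysosomal protease of the cathepsin family, with no letter to say which. It was bright on every array. In cultures 4, 8, 9 and 10 it read 7.85, 7.95, 7.82 and 7.66 at day 3 and 7.66, 8.29, 7.73 and 7.82 at day 8. It then read 8.40, 8.73, 8.37 and 8.36 at day 15 and 8.78, 8.52, 8.45 and 8.41 at day 21. No spot on any array was marked saturated. The lowest late array, 8.36, was above the highest early array, 8.29.

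The phase difference of cathepsine was 0.66 ± 0.11 (SE), or 1.58-fold, with an adjusted p of 0.000564. It passed under every alternative run, with adjusted p between 0.000242 and 0.0137 and log2 differences between 0.47 and 0.75, and it was 0.85 and 0.53 within the slides. The F-test over the 4 days gave an adjusted p of 0.00342. It did not pass with quantile normalization (adjusted p = 0.0498) or without culture 4, 9 or 10 (adjusted p = 0.0338, 0.0553 and 0.0231). Most of it lay between day 8 and day 15, where the log2 difference was 0.59 ± 0.16 (adjusted p = 0.0487, and 0.0189 with culture as a block). From day 15 to day 21 the difference was 0.07 (95% interval -0.27 to 0.42).

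The fbx32 probe stands for a muscle-known F-box protein, also called atrogin-1, that marks proteins for the proteasome in wasting muscle of mammals. It was dim, and well above background on 15 of 16 arrays. In cultures 4, 8, 9 and 10 it read -4.27, -4.25, -4.05 and -4.59 at day 3 and -4.17, -4.60, -5.18 and -4.11 at day 8. At day 15 it read -4.75, -3.51, -3.68 and -3.35, and at day 21 it read -3.96, -3.38, -2.79 and -3.70. The late arrays lay above all 8 early arrays except for that of culture 4 at day 15, which lay among them. The phase difference was 0.76 ± 0.23 (SE, adjusted p = 0.0186), higher in 3 of 4 cultures, and 0.83 and 0.57 within the slides. It passed in 6 of 11 alternatives. It did not pass without culture 8, 9 or 10 (adjusted p = 0.135, 0.129 and 0.0568), with the percentile taken over always detected probes (adjusted p = 0.0244) or without a filter on dim probes (adjusted p = 0.0291), and without culture 4 it was 1.06 (adjusted p = 0.00416).

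The proteasome probes were MSS1, an older name of an ATPase subunit of its regulatory particle, and PSMA1, a subunit of its core. MSS1 read 6.14, 6.04, 5.87 and 6.32 at day 3, 5.79, 5.71, 5.66 and 5.51 at day 8, 5.94, 5.85, 5.99 and 5.72 at day 15 and 5.98, 6.14, 6.11 and 6.12 at day 21. It was lower at day 8 in every culture, and its means at days 3 and 21 were both 6.09, with a log2 difference of -0.43 ± 0.13 (SE) from day 3 to day 8 that did not pass (adjusted p = 0.0385). PSMA1 had a phase difference of -0.24 ± 0.11 (adjusted p = 0.0967).

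Calpains are calcium-dependent proteases of the cytosol. The calpain_2 probe read 3.81, 4.23, 4.11 and 4.30 at day 3, 4.59, 5.12, 5.33 and 4.32 at day 8, 4.16, 4.48, 4.85 and 3.87 at day 15 and 4.23, 4.41, 4.37 and 3.96 at day 21 in cultures 4, 8, 9 and 10. It was highest at day 8 in every culture, although in culture 10 days 3 and 8 were almost equal. The rise to day 8 was 0.73 ± 0.24 (SE, adjusted p = 0.0529, and 0.0121 with culture as a block). The calpain_1 probe read 2.22, 2.23, 2.02 and 2.23 at day 3 and 2.63, 2.29, 2.27 and 2.69 at day 8. It then read 2.47, 2.46, 2.57 and 2.64 at day 15 and 2.70, 2.63, 2.53 and 2.71 at day 21, so that every later array lay above every day 3 array. Its early difference was 0.30 (adjusted p = 0.14) and its phase difference 0.27 (adjusted p = 0.0408).

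Antioxidant defence was covered by 5 probes that were well above background on every array: catalase, which breaks down hydrogen peroxide, the superoxide dismutases SOD1 and SOD2, a glutathione S-transferase (GST), and the transcription factor Nrf2, which switches on such genes under oxidative stress. None of the 5 passed in the main fit. The 4 enzymes were higher at day 8 than at day 3 in cultures 4, 8 and 9 and lower in culture 10. This was not particular to antioxidant enzymes, since the lipoprotein and RARb probes had the same signs, with -0.56 and -0.44 in culture 10. Across all tested probes, the deviations of the day 3 and day 8 arrays of culture 10 from their day means were only weakly related. Their correlation was -0.14, the lowest of the 24 pairs of arrays from the same culture. For the same days it was 0.099 in culture 9, 0.37 in culture 4 and 0.39 in culture 8.

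For SOD1 the day 3 values were 3.80, 3.48, 3.34 and 4.22 and the day 8 values were 4.83, 4.73, 4.60 and 3.71 in cultures 4, 8, 9 and 10. In SOD2 the cultures went from 1.24, 1.49, 1.47 and 1.81 to 1.92, 2.11, 2.29 and 1.36. Culture 10 had the highest day 3 value and the lowest day 8 value for both enzymes. GST went from 6.18, 6.31, 6.18 and 6.40 to 6.62, 6.63, 6.70 and 6.17, and Catalase from -0.97, -1.12, -1.47 and -1.12 to -0.68, -0.76, -0.61 and -1.70. The day 3 array of culture 10 also had the lowest share of spots well above background, 65.5%, where the arrays ranged up to 80.5%. The day 8 array of culture 10 had the most outlier spots, 272, where other arrays had as few as 6. The part of either array in these values was not tested.

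Over all 4 cultures the log2 difference of SOD1 from day 3 to day 8 was 0.76 ± 0.24 (SE, adjusted p = 0.0428), and that of SOD2 was 0.42 ± 0.20 (adjusted p = 0.168). Without culture 10 these were 1.18 ± 0.17 (adjusted p = 0.00199) and 0.71 ± 0.17 (adjusted p = 0.0199). Without any other single culture neither passed (SOD1 0.59 to 0.66, adjusted p = 0.159 to 0.286, and SOD2 0.29 to 0.35, adjusted p = 0.394 to 0.53). Catalase and GST did not pass without it either (adjusted p = 0.0603 and 0.154). At day 21 the SOD1 values had drawn together, between 3.85 and 4.05. GST was higher in the late phase in all 4 cultures, by 0.41 ± 0.13 (SE, adjusted p = 0.0273, and 0.0166 with culture as a block). Nrf2 lay between 2.10 and 3.36 over the 16 arrays, with a phase difference of 0.12 (95% interval -0.25 to 0.50).

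**Figure D3:**
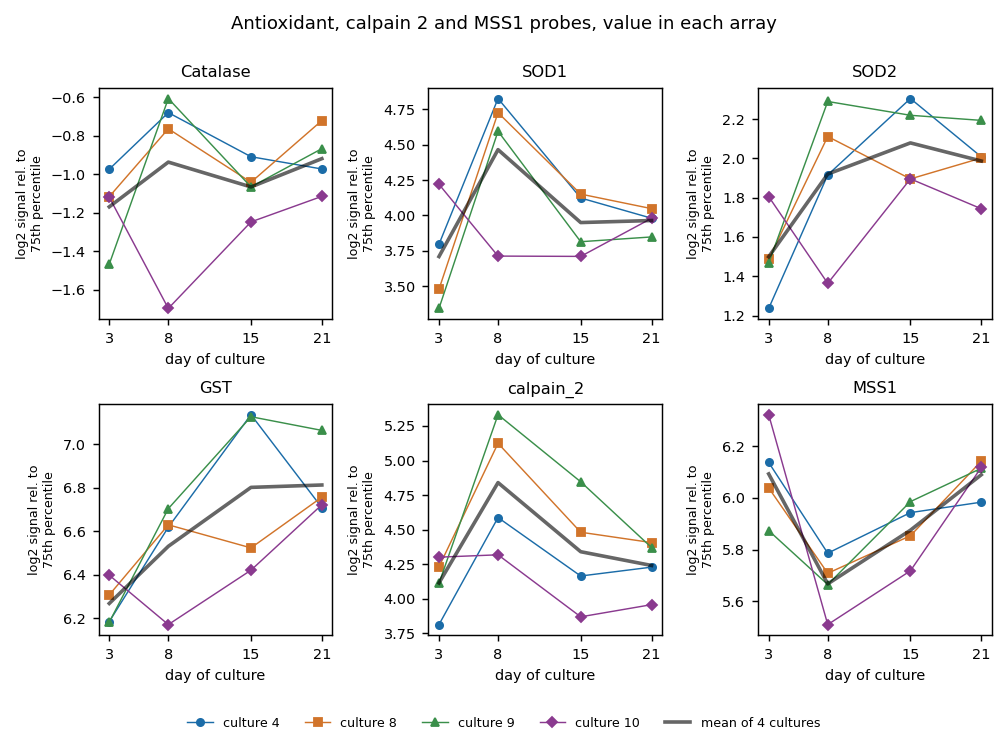
Value of the Catalase, SOD1, SOD2, GST, calpain_2 and MSS1 probes in each array (y axis, log2 signal relative to the 75th percentile, scaled per panel) by day of culture (x axis), 1 thin line per culture and a thick line for the mean of 4. For the first 4 probes cultures 4, 8 and 9 rise from day 3 to day 8 and culture 10 falls, and MSS1 dips at day 8 in all cultures.

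Several probes for muscle and connective tissue differed widely between cultures. The myod1 probe, for the factor that commits cells to skeletal muscle, read -1.18, -2.59, -1.99 and -2.18 at day 3 and -0.09, -3.90, -3.81 and 0.76 at day 8 in cultures 4, 8, 9 and 10. At day 15 it read -3.35, -4.47, -4.17 and -2.76, and at day 21 -3.97, -4.19, -4.71 and -1.41. Between day 3 and day 8 it was higher in cultures 4 and 10 and lower in cultures 8 and 9. In each culture the late mean was below the early mean. The phase difference was -1.75 ± 0.68 (SE), or 3.37-fold lower, with an adjusted p of 0.0585, and 0.00973 with culture as a block.

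Myogenin, which acts later than MyoD in muscle differentiation, was measured by the myogenine probe at -3.23 to -2.95 on day 3 and -2.83 to -2.54 on day 21, with a phase difference of 0.29 ± 0.13 (SE, adjusted p = 0.0993). The other regulators of this lineage were dim. Pax7, the mark of muscle stem cells, was well above background on 2 arrays, those of cultures 8 and 9 at day 3. The myf5 and mrf4 probes, for further muscle determination factors, were above background on 2 and 1 arrays.

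Structural muscle genes followed no common course. The probe named Slow, which begins a slow muscle protein's name, was above background on all 16 arrays, and culture accounted for 81.7% of its sum of squares over the arrays and day for 4.61%. At day 3 it read -2.36, -0.84, -1.58 and -3.25 in cultures 4, 8, 9 and 10, and at day 21 it read -0.46, -0.58, -3.07 and -4.32. Culture 10 was the lowest at each of the 4 days. A second probe, written slow, was above background on 6 arrays, none of them from day 3 and 3 of them from day 8. The myosin light chain probe fast_mlc3 was above background on the 15 arrays that gave a value and lay between -0.69 and 1.37. It was not tested because its spot was an outlier on the day 3 array of culture 4. Fast_myosin was above background on 7 arrays, fast_mlc1 on 2 and skelemin, a protein of the sarcomere, on 0.

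Scleraxis, a transcription factor of tendon progenitors, has 2 probes, one of them with a damaged letter in its name (scl?raxis). The probe with the intact name read -3.35, -5.72, -4.20 and -4.21 at day 3 and -3.0, -4.26, -3.60 and -2.23 at day 8 in cultures 4, 8, 9 and 10. The other read 0.88, -1.44, -0.44 and 0.25 at day 3 and 1.91, -0.59, -0.05 and 1.28 at day 8. Both were higher at day 8 in all 4 cultures, and both were lowest in culture 8 at each of the 4 days. The early difference of the intact name was 1.10 ± 0.53 (SE, adjusted p = 0.178, and 0.00784 with culture as a block), and that of the other was 0.83 ± 0.80 (adjusted p = 0.525, and 0.1 with the block). Over the 4 days the F-test of the intact name gave an adjusted p of 0.255, and 0.00698 with the block. Culture accounted for 58.5% and 79% of their sums of squares, where the median of all tested probes was 22.2%. More of the sum of squares lay with culture than with day for 13 of the 27 candidates and for 35.4% of all tested probes.

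**Figure D4:**
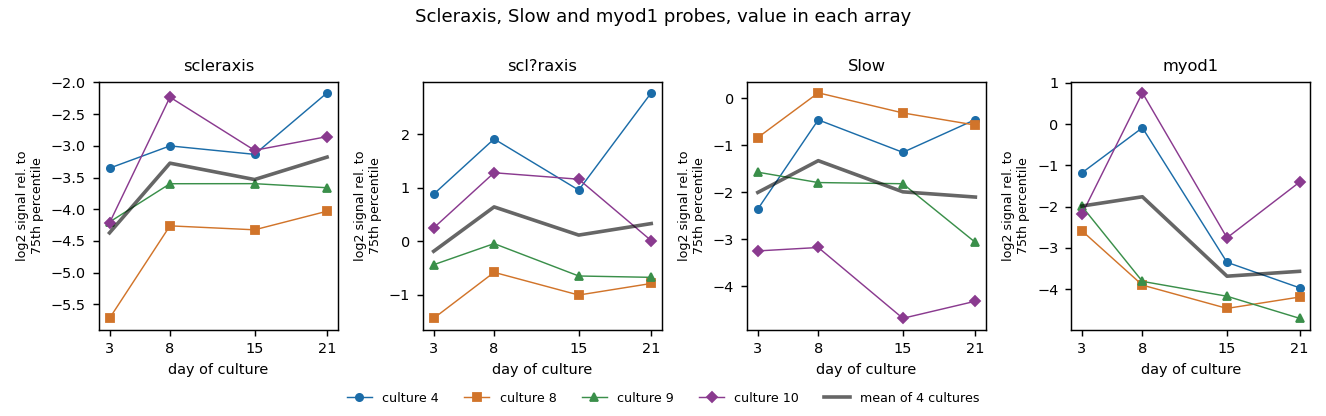
Value of both scleraxis probes, Slow and myod1 in each array (y axis, log2 signal relative to the 75th percentile, scaled per panel) by day of culture (x axis), 1 thin line per culture and a thick line for the mean of 4. Culture 8 is lowest for both scleraxis probes at each day, culture 10 is lowest for Slow, and myod1 parts the cultures at day 8.

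MSX1, a homeobox factor of mesenchymal progenitors, was well above background on 11 arrays and on all 4 only at day 15, so that it entered the test through the day when it was high. It read -5.04, -5.63, -4.45 and -4.64 at day 3, when 1 array was above background, and -3.64, -4.36, -3.94 and -3.51 at day 15. With culture as a block it is counted and drawn above among the probes that passed between the phases. That pass is no support for a rise for this reason, and its size and p-value are not printed. The cartilage factor Sox5 was above background on 8 arrays. Wnt4b, a secreted Wnt ligand, had a phase difference of -0.61 ± 0.29 (adjusted p = 0.115), RARb, a retinoic acid receptor, one of -0.12 (95% interval -0.97 to 0.74), and the probe named Serine, too short to identify, one of 0.11 (95% interval -0.22 to 0.43).

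Of the glucose genes, neither could be tested. Glucokinase, which phosphorylates glucose in liver, was above background on 1 array, that of culture 10 at day 8. Glucose-6-phosphatase, which releases free glucose, was above background on 3 arrays, 2 at day 3 and 1 at day 8. Its values, which are only bounds where it was not above background, were -6.85, -4.60, -5.74 and -2.30 at day 3 and lay between -7.58 and -7.16 at day 15. Signal was thus seen on early arrays only, and no fold could be given for it.

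**Figure D5:**
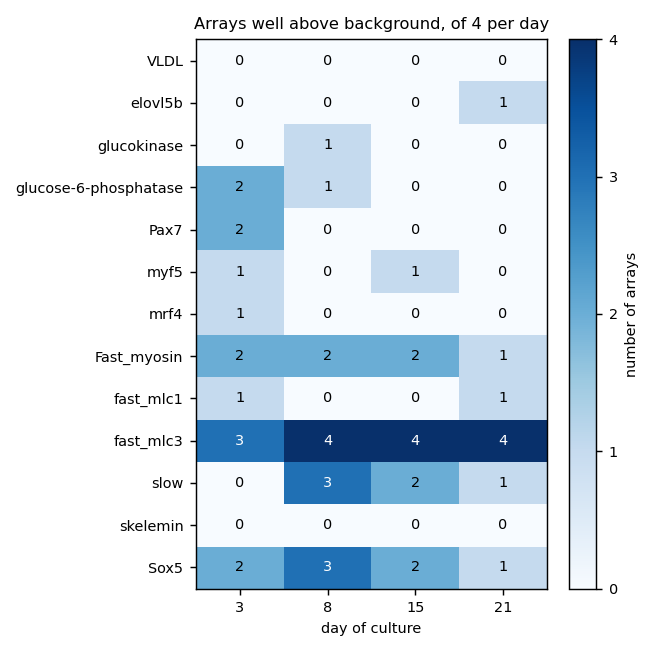
Number of arrays (0 to 4, printed and coloured) on which each of the 13 untested probes (y axis) was well above background, by day of culture (x axis). VLDL and skelemin have 0 at every day, Pax7 only 2 at day 3, and fast_mlc3, untested for a missing value, has 3 or 4 at each day.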

How the data were processed

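The authors extracted the spot intensities of the 16 one-colour arrays with Agilent Feature Extraction 10.7.3.1, which corrects background, and deposited them unnormalized. The authors also deposited log2 values made with GeneSpring. All 16 columns of that table had a median of 6.77, and 98.4% to 98.5% of probes lay within 0.001 of the scanner's log2 signal after 1 shift per array, so its scale is log2, arrays are centred on the median, genes are not centred, and no direction is involved. It was used as an alternative.

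Control spots and outlier spots (6 to 272 per array) were left out, repeat spots were averaged per probe, and the processed signal was divided by the array's 75th percentile before log2 (518 to 881 units). A value was missing on some array for 1050 probes, and 42541 further probes met the filter of 1 or more days with all 4 arrays well above background. The share of spots above background ranged from 65.5% to 80.5%, and the number of arrays limits the precision. limma 3.58.1 (R 4.3.3) fitted 1 mean per day over 16 arrays. Day steps, the difference between phases and an F-test were computed, after the analysis of variance and p and ratio limits of the study. Intervals are 95% intervals from limma. The sum of squares was split between day and culture.

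Same-culture arrays come from 1 pool of cells according to the study. The deviations of the 24 same-culture pairs from their day means correlated across probes by 0.37 on average (-0.14 to 0.70). Slide with day in the model had an adjusted p below 0.05 for 1 of 42541 probes and an unadjusted p below 0.05 for 0 candidates.

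Every candidate is named, and those that passed in the main fit or whose arrays lay apart are given by array, grouped by role from the name alone. Members and lists were chosen with earlier results of these data known. Alternatives were a culture block, normexp on the median signal (offset 50), quantile normalization, another percentile base, other filters, a slide block, the deposited values, the methods' analysis of variance and leaving out each culture. The scripts were tested on simulated data. Tables were made in Python 3.11.15 with pandas 2.3.3, numpy 2.4.6 and scipy 1.17.1, and figures with matplotlib 3.10.9.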

Additional observations from a re-analysis of the deposited data

Results flagged for a closer look

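In 7 of 108 groups of 4 arrays, 1 for each tested candidate and day, a single array lay far from the other 3 by Dixon's criterion, which chance meets in about 1 of 20 groups. At day 21, culture 4 was highest for carnitine (-2.72, others -4.23 to -3.99) and for elov12 (-0.49, others -3.61 to -3.35). At day 8, culture 10 was lowest for Catalase (-1.70, others -0.76 to -0.61) and for GST (6.17, others 6.62 to 6.70). Culture 9 was highest for GST at day 21 (7.06, others 6.71 to 6.76) and lowest for calpain_1 at day 3 (2.02, others 2.22 to 2.23). Culture 8 was highest for cathepsine at day 15 (8.73, others 8.36 to 8.40).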

How the results depend on the processing

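With culture as a replicate block, the candidates that passed numbered 5 over the 4 days (2 without the block), 4 from day 3 to day 8 (2), 1 from day 8 to day 15 (0) and 9 between the phases (3; 8 with the block if MSX1 is left out), and the block changed no other count. Over the 4 days the count was 1 with quantile normalization (24.5% of all probes). It was 4 with the methods' analysis of variance at an adjusted p below 0.02 and no ratio limit (21.9%). At an unadjusted p below 0.02 and a ratio above 3, that analysis of variance gave 0 candidates. The share of all probes by that rule was not counted. From day 3 to day 8 it was 1 without a filter on dim probes (5.48% of all probes), 1 with slide as a block (6.73%) and 1 with the deposited values (9.04%). Between the phases it was 6 with the deposited values, which added fatty, GST and calpain_1. This is 22.2% of the candidates, where 25.2% of all probes passed in that fit. Leaving out 1 culture gave 0 to 3 candidates over the 4 days, 0 to 3 from day 3 to day 8 and 1 to 4 between the phases. The 3 over the 4 days came without culture 4 (17.1% of all probes) and without culture 10 (21.7%). The 3 from day 3 to day 8 came without culture 10 (7.98%), and the 4 between the phases without culture 4 (19%). Without culture 8 or 9 the early count was 0 and the count between the phases 1, and without culture 9 the count over the 4 days was 0. The share of all probes that passed fell likewise, from day 3 to day 8 to 2.16% and 2.6% and between the phases to 11.8% and 11.3%. Over the 4 days it was 7.79% without culture 9. From day 15 to day 21 the count was 0 under every alternative run. No difference named in the text as passed changed direction. Of 83 alternative values for the 7 results that passed, 24 no longer did. The day steps of the candidates had a median interval of ± 0.52 log2 units, so for the typical candidate a smaller step could not be told from 0 with 4 cultures, and the 12 dim probes allow no statement beyond their detection.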

Other observations

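Quantile normalization added SOD1 from day 3 to day 8 (0.78, adjusted p = 0.0195) and myogenine between the phases (0.38, adjusted p = 0.0178).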
